A study of Mus musculus with 6 samples.

Results

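The genes described here are 44 mouse genes of the endoplasmic reticulum (ER) protein-folding and secretory entry machinery, measured by RNA-seq in blood stem and progenitor cells. They were chosen by symbol, with earlier results of these data known. The list holds 18 chaperones and protein disulfide isomerases, 18 genes of the translocon, signal peptidase and oligosaccharyltransferase, and 8 stress sensors and ER-associated degradation (ERAD) genes. All 44 were present among the 15845 genes of the count table. The cells were LSK cells of C57BL/6 mouse bone marrow, which lack mature lineage markers and carry Sca1 and c-Kit on their surface. The first group was Mx1Cre; Jak2VF/VF mice given TP-3654, a PIM kinase inhibitor, at 150 mg/kg/day for 6 weeks. The second group was Mx1Cre; Jak2VF/VF mice given vehicle, which the sample labels name as PBS. Each group had 3 libraries, named as biological replicates. Both groups therefore carried Jak2VF, the activating valine-to-phenylalanine allele of myeloproliferative neoplasm, in homozygous form, and both carried Cre under the interferon-responsive Mx1 promoter, which acts in many cell types besides blood. No Jak2 wild-type group is part of the comparison, and no age or sex of the mice is given by the labels.

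Secreted and membrane proteins enter the ER through the Sec61 channel while they are being made. Signal peptidase removes their leader, oligosaccharyltransferase attaches sugar chains, and chaperones and disulfide isomerases fold them. When unfolded protein builds up, the sensors encoded by Ern1 (IRE1), Atf6 and Eif2ak3 (PERK) raise chaperone and degradation genes, in part through spliced Xbp1 and through promoter sequences named ER stress response elements. In blood formation this machinery is used heavily by granulocyte-monocyte precursors, which make large amounts of granule proteins, and Calr is itself a driver gene of human myeloproliferative neoplasm.

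Library totals ran from 20582057 to 25315596 counts, so that 3 counts correspond to 0.116 to 0.153 CPM, the unit of level used throughout, in which each library's counts are divided by its total and by edgeR's TMM factor. Every member exceeded 14 CPM in every library, the lowest being 14.6 CPM for Ero1lb in TP-3654 replicate 1, and all 44 passed the low-count filter that kept 13149 genes. The sort markers were counted in all 6 libraries. Kit had 436, 492 and 581 CPM with TP-3654, against 365, 377 and 375 CPM with vehicle. Ly6a, which encodes Sca1, had 60.5, 60.5 and 68.3 CPM with TP-3654, against 40, 46.7 and 69.2 CPM with vehicle, always in the order of replicates 1 to 3. TP-3654 replicate 3 stood apart from the other libraries. Of 10996 genes above 5 CPM, 415 were over 2-fold above and 456 under the same fold below the median of the other libraries in it, whereas any other library had at most 190 above and 184 below. The 415 genes shared a median of 19.6% of their 31-base words with other loci, compared with 1.87% over all these genes. For the members and their classes, values without it are given beside the result or in the closing section. This was done where it moved a result across a threshold, turned it in sign or altered it by over 1.5 times. The other gene lists are given with all libraries only. Of the members, 14 shared over 5% of their words, and reads from the shared stretches also fit other loci. Another annotated gene overlapped 17 members, and strand, where used, could separate only overlaps on opposite strands. Hsp90b1, Pdia4, Manf and Sec11a also overlapped a gene on the same strand.

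The ER genes as a group were counted lower after TP-3654. Their summed level was 10380, 12120 and 9155 CPM in TP-3654 replicates 1 to 3, against 15040, 14690 and 13050 CPM in vehicle replicates 1 to 3. The highest TP-3654 library thus lay under the lowest vehicle library, and the ratio of the group means was 0.74. The members took up 1.05% of all counts with TP-3654 and 1.43% with vehicle. Of the 44 genes, 40 had a log2 fold change below 0, against 47.9% below 0 and 52.1% above 0 of all 13149 genes tested, and the median was −0.36, against 0.01 over all genes. In edgeR's quasi-likelihood test with Benjamini-Hochberg adjustment, 0 members and 0 genes of the whole table passed an adjusted p of 0.05, while 2244 genes had an unadjusted p under 0.05. The smallest adjusted p of a member was 0.106, for Pdia6. At an unadjusted p under 0.05 all 22 members that qualified were lower, that is 22 of 44, whereas 6.84% of all genes tested were lower and 10.2% higher at that level. Since the list was chosen with earlier results of these data known, such shares describe it and do not test it. In 23 members, or 52.3%, every TP-3654 library was below every vehicle library, which held for 11.6% of all genes. Those 2 sets had 19 genes in common. No member was separated in the upward direction, against 14.3% of all genes. DESeq2 on the same counts, a second model with a different estimate of the spread, passed 11 members, all lower (25.0%, against 4.95% of all tested genes, 1.93% lower and 3.02% higher). Those 11 were Calr, Hsp90b1, Pdia4, Pdia6, P4hb, Creld2, Manf, Sdf2l1, Sec61b, Ssr2 and Ddost. Without TP-3654 replicate 3, a fit added after the data were seen, DESeq2 passed 8 members, all lower. Over all 15818 genes of that fit, to which the edgeR filter was not applied, 446 or 2.82% passed (257 higher and 189 lower). Pdia4 (adjusted p = 0.116), Creld2 (0.0755) and Manf (0.188) no longer passed DESeq2 there. The count of 22 became 13 without vehicle replicate 1, and was also 22 without TP-3654 replicate 3. Of all genes in those fits, 5.02% and 5.27% were lower at that p.

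Markers of other cell types also differed between the groups. Genes that mark granulocyte-monocyte progenitors summed to 4060, 7707 and 2416 CPM in the TP-3654 libraries, against 13590, 12020 and 10510 CPM in the vehicle libraries. Of the 13, 10 were lower at an unadjusted p under 0.05, against 6.84% of all genes tested. Mpo, the neutrophil granule peroxidase, had 2485, 4629 and 1403 CPM with TP-3654, against 8195, 7634 and 6623 CPM with vehicle. Genes that mark LSK and stem cells summed to 2193, 2373 and 2359 CPM with TP-3654, against 1729, 1867 and 2084 CPM with vehicle. Of the 12, 7 were higher at an unadjusted p under 0.05, against 10.2% of all genes tested. Slamf1 and Gata2 had log2 fold changes below 0, at −0.35 (SE 0.23) and −0.29 (SE 0.17), and the other 10 were above 0. The groups of Slamf1 were separated downward. Cd34, with overlapping groups, made up much of the sum, at means of 1011 CPM with TP-3654 and 907 CPM with vehicle. Within each group the libraries had the same order in the granulocyte-monocyte sum and in the summed chaperones, with TP-3654 replicate 2 highest of its group, replicate 3 lowest, and vehicle replicate 1 highest. The other 2 classes did not keep that order throughout. Vehicle replicates 1 to 3 had 4617, 4889 and 4426 CPM in the translocon class. TP-3654 replicates 1 to 3 had 669.5, 833 and 694 CPM in the stress sensors and ERAD genes. In bulk RNA, fewer cells of a type cannot be told apart from less RNA per cell, and the part of cell composition in the ER gene results was not tested.

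**Figure D1:**
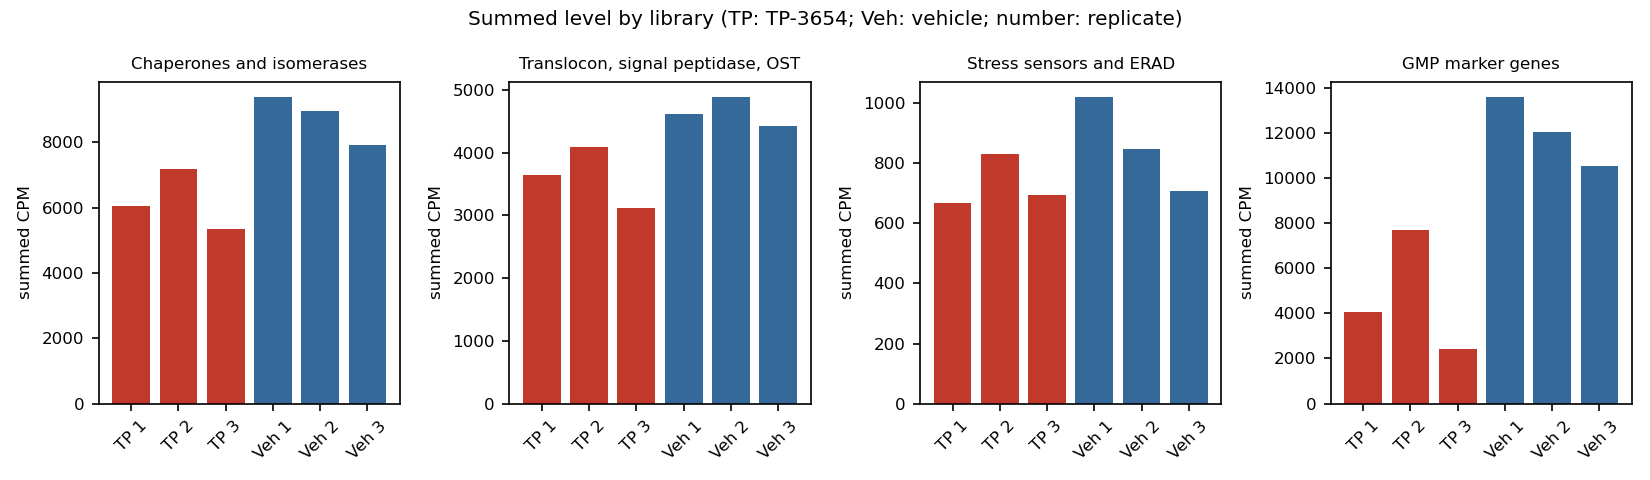
Summed CPM (vertical axes, starting at 0) of the 3 classes of ER genes and of 13 granulocyte-monocyte progenitor (GMP) marker genes in each library; red bars are TP-3654 replicates 1 to 3 and blue bars vehicle replicates 1 to 3. The chaperone sums were 5339 to 7196 CPM with TP-3654 and 7913 to 9399 CPM with vehicle, and the GMP sums were 2416 to 7707 CPM with TP-3654 and 10510 to 13590 CPM with vehicle; the sums of stress sensors and ERAD genes overlapped.

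The chaperones and isomerases showed the lowest levels relative to vehicle of the 3 classes. Their sum was 6199 ± 936 CPM with TP-3654 and 8754 ± 762 CPM with vehicle (SD, n = 3 each), a ratio of 0.708. Of 18 genes, 11 were lower at an unadjusted p under 0.05 (61.1%), 10 had groups that did not overlap (55.6%) and 8 passed in DESeq2 (44.4%). The downward shares over all genes tested were 6.84%, 11.6% and 1.93%, in that order. The median log2 fold change was −0.42. Without vehicle replicate 1 the count of 11 became 7, where 5.02% of all genes in that fit were lower at that p. TP-3654 replicate 2 was the highest TP-3654 library for 16 of the 18 genes, and vehicle replicate 1 the highest vehicle library for 12. These shares were not counted over all genes.

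Calr and its calcium-binding and glycoprotein-folding partners come first. Calr, the lectin chaperone calreticulin, had the highest level per length of any member, 572 CPM per kb of exon with TP-3654 and 870 ± 52.3 CPM per kb with vehicle. Its counts came to 1594, 1929 and 1419 CPM in the TP-3654 libraries, against 2349, 2649 and 2520.0 CPM in the vehicle libraries. The groups did not overlap, and TP-3654 replicate 3 was the lowest of all 6 libraries. The log2 fold change was −0.61 (SE 0.15), with an adjusted p of 0.107 in edgeR and 0.00205 in DESeq2. In an edgeR fit over the 8567 genes that share at most 5% of their 31-base words, added after the data were seen, Calr was the 1 member of 30 that passed, at an adjusted p of 0.04995, where 123 or 1.44% of all genes in that fit passed (77 higher and 46 lower). Without TP-3654 replicate 3 that fit passed 0 members. Pdia3, the disulfide isomerase that works with calreticulin, had 595, 618 and 542 CPM with TP-3654, against 772, 799.8 and 661 CPM with vehicle. Its log2 fold change was −0.35 (SE 0.13, edgeR adjusted p = 0.222), and the groups did not overlap. Canx, the membrane-bound relative of calreticulin, had overlapping groups and a log2 fold change of −0.22 (SE 0.14, edgeR adjusted p = 0.441).

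Hspa5 and Hsp90b1 encode the ER members of the Hsp70 and Hsp90 families, BiP and GRP94. Hspa5 had 717, 960.5 and 551 CPM in the TP-3654 libraries, against 1487, 1002 and 844 CPM in the vehicle libraries. The groups overlapped, since TP-3654 replicate 2 was above vehicle replicate 3, and the wide vehicle range came from replicate 1. Its log2 fold change was −0.58 (SE 0.26, edgeR adjusted p = 0.308), and it ran from −0.81 to −0.32 when single libraries were left out. Hsp90b1 had 529, 569 and 468 CPM with TP-3654, against 787, 725 and 634 CPM with vehicle. All 3 TP-3654 libraries were lower, with a log2 fold change of −0.45 (SE 0.13), an adjusted p of 0.159 in edgeR and 0.0214 in DESeq2. Hsp90b1 shares 12.3% of its 31-base words with other loci and overlaps small annotated genes, so its counts carry that uncertainty.

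The disulfide isomerases shape the cysteine pairs of secreted proteins. Pdia6 had 313, 342 and 304 CPM in the TP-3654 libraries, against 447, 457 and 415 CPM in the vehicle libraries. The groups were well apart next to their SDs of 19.9 CPM with TP-3654 and 21.9 CPM with vehicle. The log2 fold change was −0.46 (SE 0.11), with an adjusted p of 0.106 in edgeR and 0.00347 in DESeq2. P4hb, the main protein disulfide isomerase and also a subunit of prolyl hydroxylase, had 820.3, 975 and 656 CPM with TP-3654, against 1216, 1261 and 1105 CPM with vehicle. The groups did not overlap, at a log2 fold change of −0.55 (SE 0.16, edgeR adjusted p = 0.156, DESeq2 adjusted p = 0.0173). Pdia4, a further isomerase, had 146, 187 and 119.7 CPM with TP-3654, against 289.9, 216 and 199.7 CPM with vehicle. Its log2 fold change was −0.64 (SE 0.19, edgeR adjusted p = 0.177). Pdia5 was a low-level isomerase, at 22.4, 17.2 and 20.1 CPM with TP-3654, against 21.5, 27 and 29.1 CPM with vehicle. Its groups overlapped, since vehicle replicate 1 lay below TP-3654 replicate 1, and the unadjusted p was 0.04995.

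The co-chaperones and small stress-responsive ER proteins included the member with the largest difference. Sdf2l1, a partner of BiP and its DnaJ co-chaperones, had 74.8, 111 and 45.7 CPM in the TP-3654 libraries, against 182, 138 and 121 CPM in the vehicle libraries. The log2 fold change was −0.93 (SE 0.34), and it had the widest SE of the class (edgeR adjusted p = 0.256, DESeq2 adjusted p = 0.0159). Without TP-3654 replicate 3, the lowest library, DESeq2 gave a log2 fold change of −0.68. Manf, a secreted stress-induced protein that binds BiP, had 112, 145 and 93.1 CPM with TP-3654, against 227, 155 and 155 CPM with vehicle. Its groups were separated by the narrow gap between TP-3654 replicate 2 and vehicle replicates 2 and 3 (log2 fold change −0.62, SE 0.21, edgeR adjusted p = 0.203), and the log2 fold change was −0.41 without vehicle replicate 1. Creld2, a stress-induced isomerase-like protein, had 50.6, 57.3 and 49.4 CPM with TP-3654, against 98, 68.1 and 69.1 CPM with vehicle. Here too vehicle replicate 1 was the highest library, and the log2 fold change was −0.58 (SE 0.16, edgeR adjusted p = 0.137). Dnajb11, a DnaJ co-chaperone of BiP, had 124, 133 and 98.3 CPM with TP-3654, against 169, 146 and 147 CPM with vehicle. The groups did not overlap at a log2 fold change of −0.38 (SE 0.14, edgeR adjusted p = 0.215).

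The remaining chaperone genes did not separate. Hyou1, the large ER relative of Hsp70, the oxidases Ero1l and Ero1lb that recharge the isomerases, and the co-chaperone Dnajc3 had log2 fold changes between −0.32 and −0.25. Dnajb9, a co-chaperone that represses IRE1, had 16.9, 26.8 and 22 CPM with TP-3654, against 27.5, 21.7 and 14.7 CPM with vehicle. Both groups covered nearly the same range (log2 fold change 0.04, SE 0.25, edgeR adjusted p = 0.944).

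**Figure D2:**
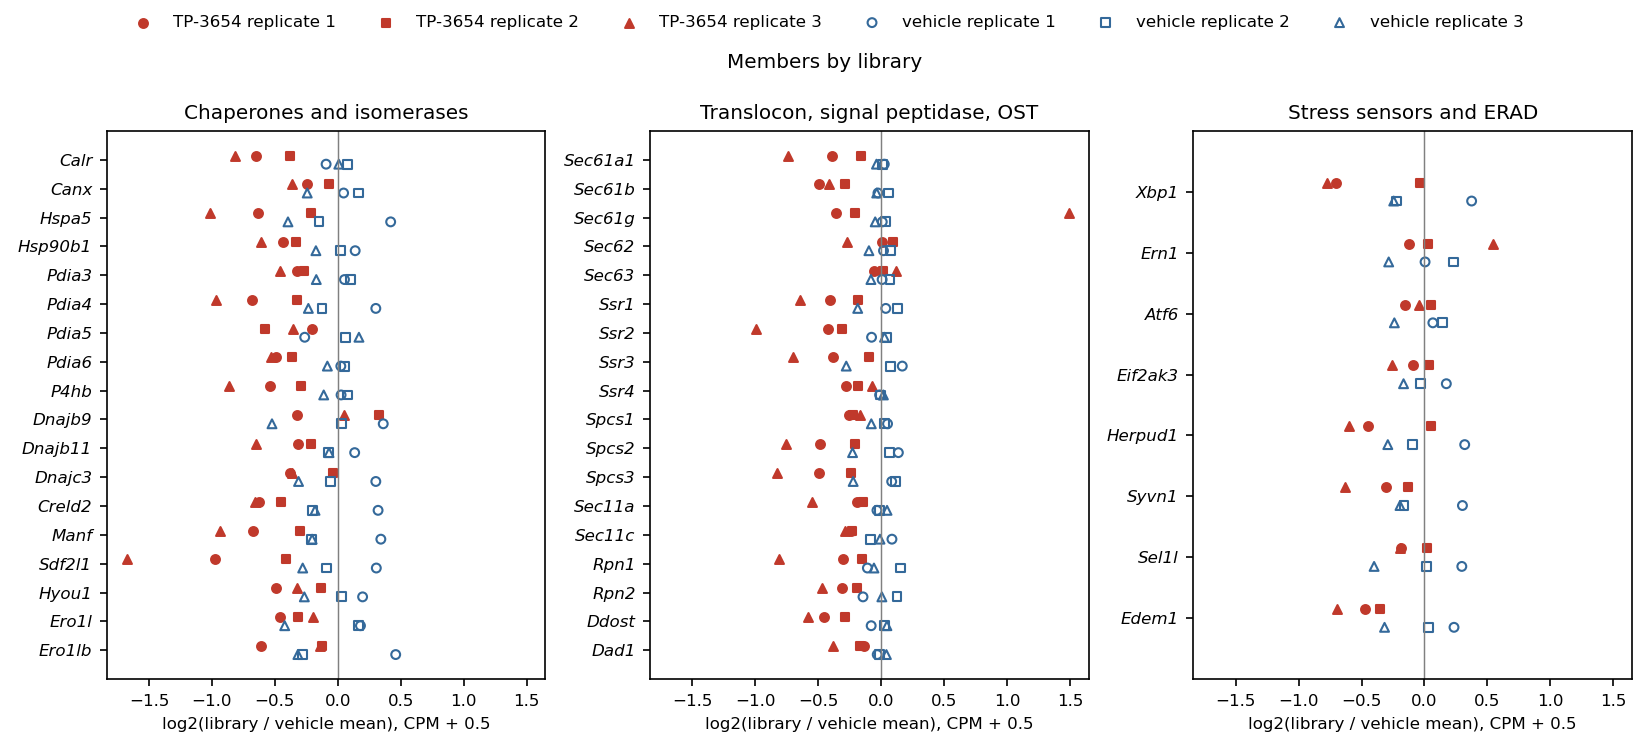
Level of each of the 44 members in each library as log2 of the ratio to the vehicle mean (horizontal axis, CPM + 0.5); filled red symbols are TP-3654 replicates 1 to 3 and open blue symbols vehicle replicates 1 to 3. TP-3654 replicate 2 is the highest of its group in 36 of 44 genes and replicate 3 the lowest in 31, and Sec61g in TP-3654 replicate 3 lies far right of every other point. The matching shares over all genes were not counted.

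Promoters were read for the members, since ER stress response elements are the sequences through which ATF6 and XBP1 act. RefSeq promoter windows of GRCm38.p6, from 250 bases before to 50 bases after each start site, were matched for 37 members (38 windows), and none was matched for Manf, Hyou1, Sec61a1, Ssr2, Spcs3, Sec11c and Atf6. The element ERSE was searched as CCAAT and CCACG with 9 bases of any kind between them, and ERSE-II as ATTGG and CCACG with 1 base between them, on both strands. ERSE was in 9 members, or 23.7% of their windows, against 0.119% of all 32851 promoter windows of the same length. ERSE-II was in 2 members, Dnajb11 and Herpud1, or 5.26% of member windows against 0.0365% of all. The core TGACGTGG of a further element, the UPRE, was in 0 member windows and in 0.676% of all windows. ERSE and ERSE-II overlap in their CCACG letters but no member had both. The 6 members with the smallest p among those holding an element are shown here. Capitals mark the fixed letters of the element, and all sequences read 5′ to 3′ on the strand of the gene. For Dnajb11 the short stretch around the element is given, in which the element begins at base 8 counted from the start site.
Pdia6 (chr12:17266339-17266588, plus strand): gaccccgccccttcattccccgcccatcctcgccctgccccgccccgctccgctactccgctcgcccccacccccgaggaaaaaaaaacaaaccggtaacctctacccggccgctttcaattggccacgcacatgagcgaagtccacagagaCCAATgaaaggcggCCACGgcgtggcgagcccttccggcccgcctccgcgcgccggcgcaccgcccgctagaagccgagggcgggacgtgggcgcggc
Calr (chr8:84846932-84847181, minus strand): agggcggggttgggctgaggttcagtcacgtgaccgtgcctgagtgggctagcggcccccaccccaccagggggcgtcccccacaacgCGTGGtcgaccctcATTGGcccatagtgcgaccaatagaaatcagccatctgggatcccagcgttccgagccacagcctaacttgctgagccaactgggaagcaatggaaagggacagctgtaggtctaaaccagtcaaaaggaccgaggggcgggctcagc
Creld2 (chr15:88819396-88819645, plus strand): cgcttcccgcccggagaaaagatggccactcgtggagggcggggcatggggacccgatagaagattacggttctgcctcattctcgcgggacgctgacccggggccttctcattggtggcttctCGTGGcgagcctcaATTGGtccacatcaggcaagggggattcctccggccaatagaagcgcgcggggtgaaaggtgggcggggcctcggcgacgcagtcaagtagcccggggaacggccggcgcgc
Hsp90b1 (chr10:86705445-86705694, minus strand): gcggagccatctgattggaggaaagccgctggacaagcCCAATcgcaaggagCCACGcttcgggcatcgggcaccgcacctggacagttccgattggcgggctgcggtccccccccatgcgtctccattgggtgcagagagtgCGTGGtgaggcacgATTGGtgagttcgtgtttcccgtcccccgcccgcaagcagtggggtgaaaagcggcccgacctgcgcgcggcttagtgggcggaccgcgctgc
Dnajb11 (chr16:22857844-22857870, plus strand): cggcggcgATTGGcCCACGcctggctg
Hspa5 (chr2:34771840-34772089, plus strand): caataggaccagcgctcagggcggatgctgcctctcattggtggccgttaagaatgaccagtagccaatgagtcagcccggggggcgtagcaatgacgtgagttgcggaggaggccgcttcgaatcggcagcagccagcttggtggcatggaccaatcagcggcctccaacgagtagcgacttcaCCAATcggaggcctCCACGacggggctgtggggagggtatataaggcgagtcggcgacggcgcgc

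The first base of the element lay 98 bases before the start site in Pdia6, 162 in Calr, 126 in Creld2 and 65 in Hspa5. Hsp90b1 held 2 copies, 212 and 107 bases before the start, on opposite strands. By class, 9 of 16 chaperone promoters, 0 of 14 translocon promoters and 2 of 7 sensor and ERAD promoters held either element. Members with and without an element were then set side by side. Groups did not overlap in 5 of the 11 with an element and in 13 of the 26 without, and the medians of the log2 fold change were −0.38 with and −0.34 without. Downward separation held for 11.6% of all genes tested. The matches describe these windows only, and binding at them was not measured.

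**Figure D3:**
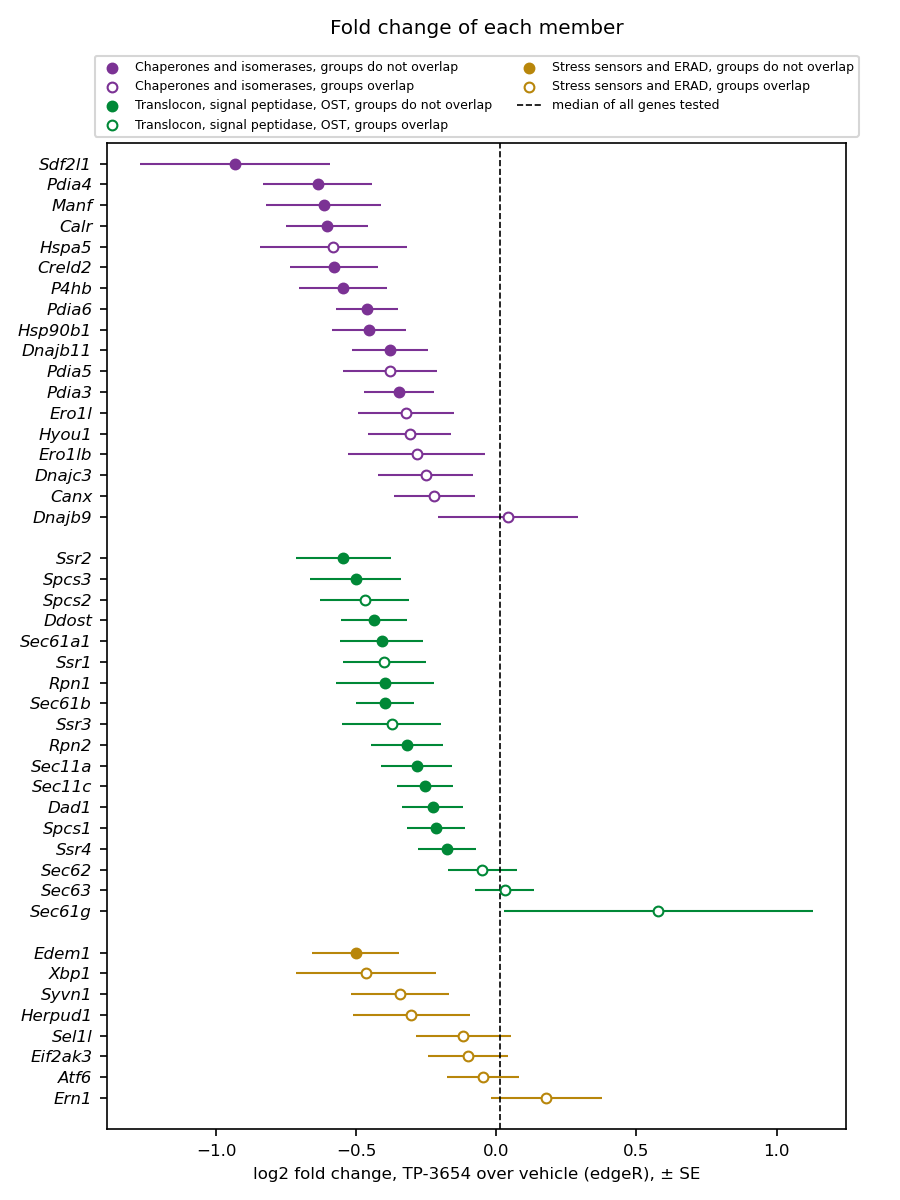
Log2 fold change of TP-3654 over vehicle with its SE (horizontal axis, edgeR) for each member, by class; filled points are genes whose groups do not overlap, and the dashed line is the median of all genes tested. Of the 44 points, 40 are below 0 and 23 are filled, all 23 of them to the left of 0.

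The translocon, signal peptidase and oligosaccharyltransferase genes were also counted lower after TP-3654. Their sum was 3618 ± 483 CPM with TP-3654 and 4644 ± 233 CPM with vehicle (SD, n = 3 each), a ratio of 0.779. Of 18 genes, 10 were lower at an unadjusted p under 0.05 (55.6%), 12 had groups that did not overlap (66.7%) and 3 passed in DESeq2 (16.7%). Among all genes tested these downward shares were 6.84%, 11.6% and 1.93%. The median log2 fold change was −0.35. The count of 10 became 5 without vehicle replicate 1, and 6 without vehicle replicate 2 or without TP-3654 replicate 1. Of all genes in those fits, 5.02%, 5.35% and 6.38% were lower at that p, in that order.

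The entry site is built of the Sec61 channel and the TRAP complex beside it. Sec61a1 encodes the channel pore and had 314, 369 and 247 CPM in the TP-3654 libraries, against 419, 415 and 401 CPM in the vehicle libraries. The vehicle libraries were close together (SD 9.36 CPM) and all above the TP-3654 libraries (log2 fold change −0.41, SE 0.15, edgeR adjusted p = 0.225). Sec61b, a small channel subunit, had 80.2, 92.3 and 84.7 CPM with TP-3654, against 111, 118 and 110.2 CPM with vehicle. Both groups were tight, at a log2 fold change of −0.40 (SE 0.10, edgeR adjusted p = 0.127, DESeq2 adjusted p = 0.0314). Sec61b shares 23.5% of its 31-base words with other loci, the highest share of any member. The channel's partners Sec62 and Sec63, which serve proteins imported after synthesis, had log2 fold changes of −0.05 (SE 0.12) and 0.03 (SE 0.10), and their groups overlapped. Both turned in sign without TP-3654 replicate 3, Sec62 to 0.04. Sec63 ran from −0.0281 to 0.0701 with single libraries left out. Ssr2, a subunit of the translocon-associated protein complex TRAP, had 262, 284 and 177 CPM with TP-3654, against 334, 364 and 359 CPM with vehicle. The groups did not overlap (log2 fold change −0.55, SE 0.17, edgeR adjusted p = 0.177, DESeq2 adjusted p = 0.0418). Ssr2 overlaps an opposite-strand gene, Gm10704, and shares 15.04% of its 31-base words. Ssr1, the alpha subunit of TRAP, had 324, 379.5 and 275 CPM with TP-3654, against 441, 471 and 378 CPM with vehicle. TP-3654 replicate 2 just reached above vehicle replicate 3, and the log2 fold change was −0.40 (SE 0.15, edgeR adjusted p = 0.229). Ssr4 had 118, 127 and 137 CPM with TP-3654, against 143, 144 and 146 CPM with vehicle. The groups were separated by a narrow gap, at a log2 fold change of −0.18 (SE 0.10, edgeR adjusted p = 0.397). Ssr3 had overlapping groups and a log2 fold change of −0.37 (SE 0.18), or −0.24 without TP-3654 replicate 3.

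Sec61g, the remaining channel subunit, depended on 1 library. It had 17.9, 19.9 and 65.6 CPM with TP-3654, against 23.2, 23.6 and 22.3 CPM with vehicle. TP-3654 replicates 1 and 2 were below every vehicle library and replicate 3 was far above them all. The log2 fold change was 0.58 (SE 0.55, edgeR adjusted p = 0.604) with replicate 3 and −0.30 without it. In the authors' deposited table the log2 fold change of Sec61g is −0.41, with an adjusted p of 0.0653. Sec61g shares 15.7% of its 31-base words with other loci, and the part of this in the value of replicate 3 was not tested.

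**Figure D4:**
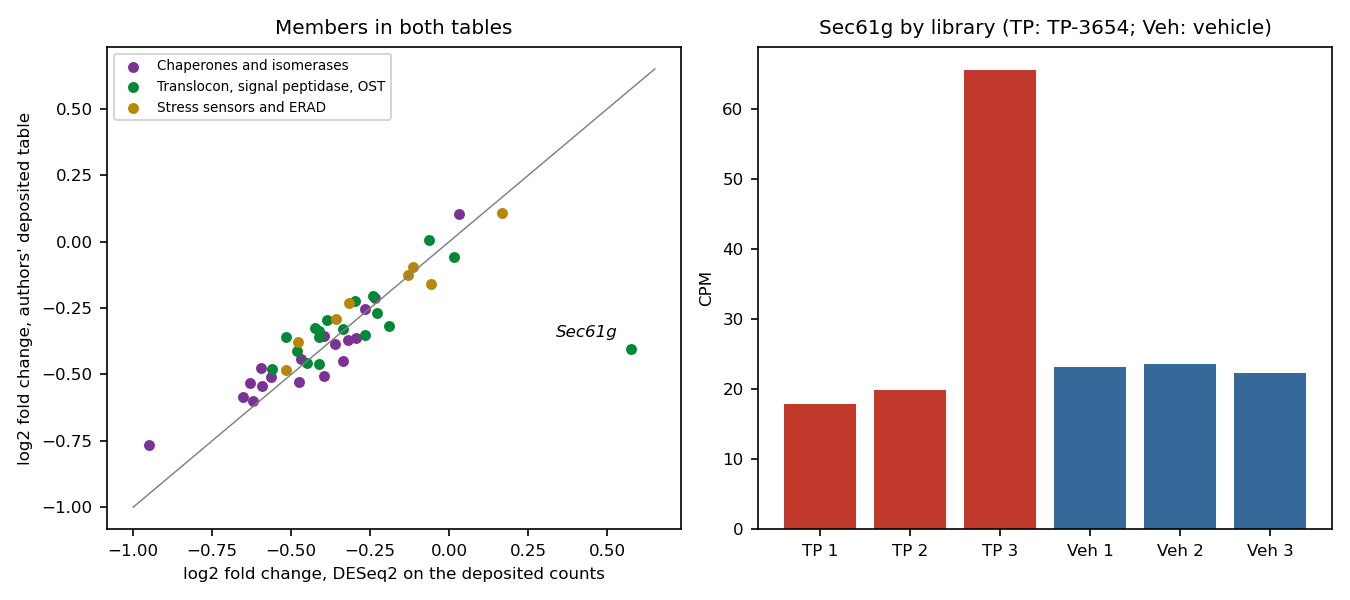
Left, log2 fold change of each member in the authors' deposited table (vertical axis) against DESeq2 on the deposited counts (horizontal axis), with the line of equality; right, CPM of Sec61g in each library from 0, with TP-3654 in red and vehicle in blue. In 43 of 44 members the tables differ by less than 0.2, and Sec61g, at −0.41 in the deposited table, stands off the line; its 65.6 CPM in TP-3654 replicate 3 is above all other libraries.

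Signal peptidase cuts the leader peptide from entering chains. Spcs3, an accessory subunit needed for its activity, had 183, 219 and 146 CPM in the TP-3654 libraries, against 274, 280.5 and 222 CPM in the vehicle libraries. The highest TP-3654 library lay just below the lowest vehicle library (log2 fold change −0.50, SE 0.16, edgeR adjusted p = 0.186). Spcs2 had 159, 193 and 132 CPM with TP-3654, against 245, 233 and 191 CPM with vehicle. TP-3654 replicate 2 reached slightly above vehicle replicate 3, at a log2 fold change of −0.47 (SE 0.16, edgeR adjusted p = 0.199). Sec11c, a catalytic subunit, had 147, 148 and 143 CPM with TP-3654, against 185, 164 and 173 CPM with vehicle. Its TP-3654 libraries were close together (SD 2.63 CPM), with a log2 fold change of −0.25 (SE 0.10, edgeR adjusted p = 0.254). The alternative catalytic subunit Sec11a had 86.9, 90 and 67.9 CPM with TP-3654, against 97.1, 98.3 and 103 CPM with vehicle. The groups did not overlap, at a log2 fold change of −0.28 (SE 0.13, edgeR adjusted p = 0.294), or −0.18 without TP-3654 replicate 3. Spcs1, a small accessory subunit, had 61.4, 62.9 and 65.2 CPM with TP-3654, against 75.9, 74.5 and 69.4 CPM with vehicle. It too was separated, with a log2 fold change of −0.22 (SE 0.10, edgeR adjusted p = 0.314).

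Oligosaccharyltransferase adds N-linked sugars to chains that emerge from the channel. Ddost had 294, 329.9 and 269.7 CPM in the TP-3654 libraries, against 382, 412 and 416 CPM in the vehicle libraries. The groups were clear of each other (log2 fold change −0.44, SE 0.12, edgeR adjusted p = 0.136, DESeq2 adjusted p = 0.0167). Rpn1 had 496, 552 and 349 CPM with TP-3654, against 569, 683 and 589.9 CPM with vehicle. Replicate 3 was the lowest TP-3654 library and replicate 2 came close to the lowest vehicle library, at a log2 fold change of −0.40 (SE 0.17, edgeR adjusted p = 0.286), or −0.24 without replicate 3. Rpn2 had 482, 524 and 432 CPM with TP-3654, against 541, 653 and 601 CPM with vehicle. Here the gap between the groups was also narrow (log2 fold change −0.32, SE 0.13, edgeR adjusted p = 0.258). Dad1, the smallest of these subunits and named for its loss causing apoptosis, had 101, 98.8 and 85.3 CPM with TP-3654, against 109, 110.3 and 115 CPM with vehicle. Its groups did not overlap, at a log2 fold change of −0.23 (SE 0.11, edgeR adjusted p = 0.313).

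The stress sensors and ERAD genes had the ratio nearest to 1 of the 3 classes. Their sum was 732 ± 88.1 CPM with TP-3654 and 860.0 ± 157 CPM with vehicle (SD, n = 3 each), a ratio of 0.851, and the groups overlapped. Of 8 genes, 1 was lower at an unadjusted p under 0.05 and that gene alone had groups that did not overlap, each 12.5%. Over all genes 6.84% were lower at that p and 11.6% were separated downward, so 1 of 8 is near the background. In DESeq2 0 of 8 passed the adjusted p, and 2 were lower at an unadjusted p under 0.05, against 7.16% of all its genes. The median log2 fold change was −0.21. Single libraries altered this median by over 1.5 times. Dropping vehicle replicate 1 gave −0.06 and dropping vehicle replicate 3 gave −0.36. With TP-3654 replicate 3 left out it came to −0.14, and with TP-3654 replicate 2 left out to −0.33. Leaving out TP-3654 replicate 2 took the count of 1 to 4, where 7.68% of all genes in that fit were lower at that p.

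The 3 sensors themselves showed no separation. Ern1, the kinase and RNase IRE1, had 108, 120.4 and 172 CPM in the TP-3654 libraries, against 118, 139 and 96.8 CPM in the vehicle libraries. Replicate 3 was the only TP-3654 library above all vehicle libraries, and the log2 fold change was 0.18 (SE 0.20, edgeR adjusted p = 0.641), against −0.05 without that replicate. Atf6, a membrane-bound transcription factor released by cleavage, had 71.5, 82.4 and 77.2 CPM with TP-3654, against 83.4, 88 and 67.3 CPM with vehicle. The groups overlapped fully (log2 fold change −0.05, SE 0.13, edgeR adjusted p = 0.871). Eif2ak3, the kinase PERK that slows translation, had 33.2, 36.2 and 29.5 CPM with TP-3654, against 40, 34.7 and 31.5 CPM with vehicle. Its log2 fold change was −0.10 (SE 0.14, edgeR adjusted p = 0.723), or −0.04 without TP-3654 replicate 3. With 3 libraries a group, differences of the size of these SEs were not detectable. Xbp1, whose RNA IRE1 splices, had 120.2, 191 and 114 CPM with TP-3654, against 254, 168 and 165 CPM with vehicle. TP-3654 replicate 2 lay above vehicle replicates 2 and 3, and the log2 fold change was −0.47 (SE 0.25, edgeR adjusted p = 0.373). Dropping vehicle replicate 1 gave −0.23, and dropping TP-3654 replicate 2 gave −0.74. Counts per gene do not tell spliced from unspliced Xbp1.

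Among the degradation genes, Edem1 encodes a mannosidase-like protein that marks misfolded glycoproteins for disposal and had 89.8, 97.7 and 76.8 CPM in the TP-3654 libraries, against 147, 127 and 100 CPM in the vehicle libraries. The gap was narrow, between TP-3654 replicate 2 and vehicle replicate 3, and the log2 fold change was −0.50 (SE 0.16, edgeR adjusted p = 0.177). The ubiquitin ligase Syvn1, its partner Sel1l and the stress-induced Herpud1 had overlapping groups and log2 fold changes of −0.34 (SE 0.17), −0.12 (SE 0.17) and −0.30 (SE 0.21). Without TP-3654 replicate 3 Syvn1 was at −0.23 and Herpud1 at −0.18. Vehicle replicate 1 was the highest vehicle library for 6 of the 8 genes of this class.

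Levels per length set the members in order. In vehicle cells Calr (870 CPM per kb) was followed by P4hb at 417 ± 28.1, Hspa5 at 263 ± 79.2, Pdia3 at 237 ± 23.4 and Ddost at 190.0 ± 8.84 CPM per kb (SD, n = 3). With TP-3654 the same genes were at 286 for P4hb, 176 for Hspa5, 186 for Pdia3 and 141 CPM per kb for Ddost. Hspa5 and Pdia3, neighbours in this order, differed by less than the SD of Hspa5 in vehicle cells. At the low end were Eif2ak3 at 5.47 CPM per kb with TP-3654 and 5.87 CPM per kb with vehicle, and Ero1lb at 2.79 CPM per kb with TP-3654 and 3.39 CPM per kb with vehicle. Across the 44 genes, which share the same 6 libraries, more abundant members had lower log2 fold changes (Spearman's rho −0.69, given as a description). The vehicle level enters both quantities.

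The authors' deposited table, made from the same libraries and so not independent, lists 13 members as lower at an adjusted p under 0.05, against 2.48% of all its genes lower and 2.85% higher. They were the 11 that DESeq2 passed on the counts, together with Sec11c and Spcs2. It lists 41 members with a negative and 3 with a positive log2 fold change. Its mean normalized count was 2136 for Sec11c and 2306 for Sec62, whereas Sec11c was above Sec62 in every library of the deposited counts. That table thus does not rest on the same counts per gene, and the cause was not tested. The sign differed from DESeq2 on the counts in 3 members, and over the 44 the 2 sets of fold changes had a Spearman's rho of 0.85.

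Neighbouring ER gene lists were counted to place the members. Over all genes tested, 6.84% were lower and 10.2% higher at an unadjusted p under 0.05. Of 20 further ERAD genes, 5 were lower and 0 higher at an unadjusted p under 0.05, with a median log2 fold change of −0.14. Derl1, a channel for retrotranslocation, had a mean of 97 ± 7.05 CPM with TP-3654 and 127 ± 6.4 CPM with vehicle (SD, n = 3 each). Selenos, which binds it, averaged 44.6 ± 9.6 CPM with TP-3654 and 67 ± 9.19 CPM with vehicle (SD, n = 3 each). Of 17 further glycosylation and glycoprotein-folding genes, 8 were lower and 0 higher (median −0.19). Among them Magt1 and Ostc, further oligosaccharyltransferase subunits, had log2 fold changes of −0.48 (SE 0.14) and −0.48 (SE 0.14), and Dpagt1, which starts the sugar chain, −0.32 (SE 0.11). Of 16 signal recognition particle and targeting genes, 6 were lower and 0 higher (median −0.10). The smallest p was that of Tram1, at a log2 fold change of −0.34 (SE 0.11). Of 21 further foldases and prolyl isomerases, 6 were lower and 0 higher (median −0.22). Erp29, a chaperone-like ER protein, had 264 ± 56.2 CPM with TP-3654 and 386 ± 27.9 CPM with vehicle (SD, n = 3 each). Erp44, which retains ER proteins, was at −0.43 (SE 0.13), and the reductase Dnajc10 at −0.34 (SE 0.10). In DESeq2 some genes of these lists passed an adjusted p of 0.05, all lower, against 1.93% lower of all genes tested. They were 2 of the 20 ERAD genes (Derl1 and Selenos), 2 of the 17 glycosylation genes (Magt1 and Ostc) and 1 of the 21 foldases (Erp29). Of the 16 targeting genes 0 passed.

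Gene lists outside the ER lumen gave other counts. Of 17 cytosolic and mitochondrial heat shock genes, 0 were lower or higher at an unadjusted p under 0.05, and the median was −0.06. The list summed to 12160, 10940 and 14490 CPM with TP-3654, against 12080, 13000 and 11940 CPM with vehicle. TP-3654 replicate 3 was thus the highest library, and the list was not counted without it. Of 18 PERK and integrated stress response targets, 1 was lower and 1 higher, each 5.56% (median −0.05). Over all genes tested 6.84% were lower and 10.2% higher, so these counts are not above the background. Vldlr, a lipoprotein receptor of that list, had 90.5, 164 and 106 CPM with TP-3654, against 51.2, 42.1 and 55.2 CPM with vehicle. All 3 TP-3654 libraries were above all vehicle libraries, at a log2 fold change of 1.28 (SE 0.23, edgeR adjusted p = 0.0792, DESeq2 adjusted p = 1.04e-05). Cebpb, a transcription factor of myeloid cells, had 4.63, 6.46 and 3.07 CPM with TP-3654, against 14.8, 8.33 and 7.79 CPM with vehicle. It was separated downward, at −1.12 (SE 0.34, edgeR adjusted p = 0.173, DESeq2 adjusted p = 0.0272). Ddit3, the factor CHOP of the PERK branch, had overlapping groups at −0.38 (SE 0.19).

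**Figure D5:**
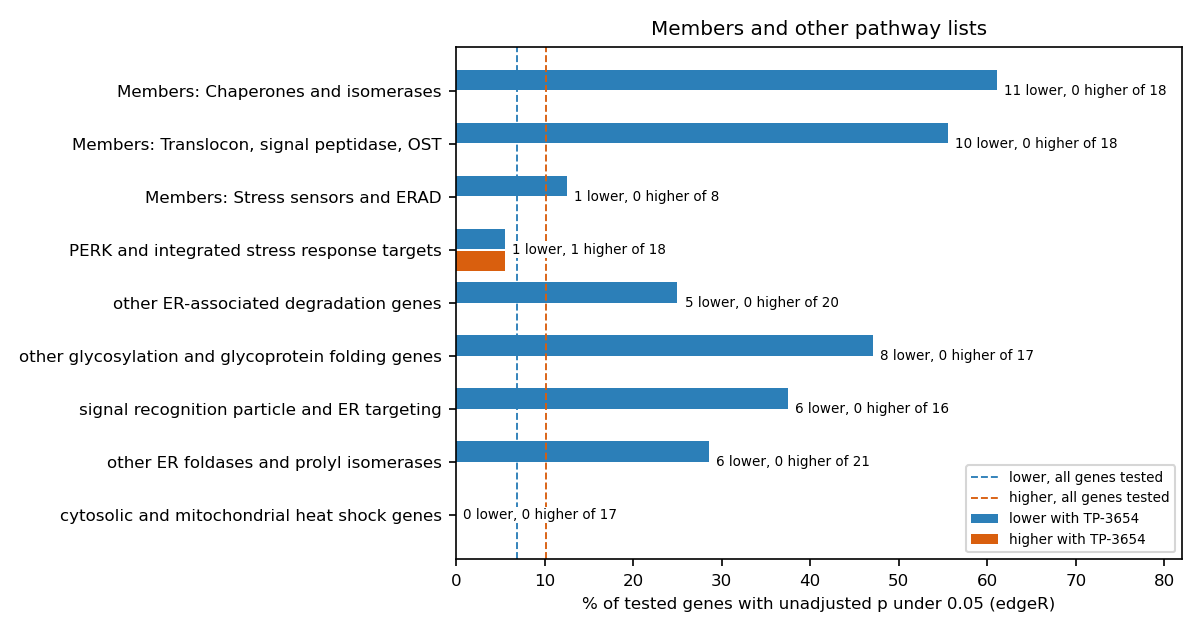
Share of each list's tested genes (horizontal axis, %, from 0) that were lower (blue) or higher (orange) with TP-3654 at an unadjusted edgeR p under 0.05; dashed lines are the shares over all 13149 genes, 6.84% lower and 10.2% higher. Chaperones reach 61.1% and translocon genes 55.6% lower, whereas heat shock genes have no bar.

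Other cell types in the gate were followed by their markers. Mature neutrophil and monocyte genes summed to 47.9, 129 and 47.7 CPM with TP-3654, against 542, 155 and 122 CPM with vehicle, and vehicle replicate 1 was the highest library. That library was also the highest of its group in 23 of the 44 ER genes. By class these were 12 of 18 chaperones and isomerases, 5 of 18 translocon genes and 6 of 8 stress sensors and ERAD genes. Vehicle replicate 3 was the lowest of its group in 31 members. The matching shares over all genes were not counted. Vehicle replicate 1 was also the highest vehicle library in the granulocyte-monocyte, B and plasma cell and erythroid sums. B and plasma cell genes summed to 133, 78.6 and 39.2 CPM with TP-3654, against 104, 82.2 and 66.2 CPM with vehicle, and 0 of 7 tested were lower or higher at an unadjusted p under 0.05. Mast cell and basophil genes summed to 318, 436 and 107 CPM with TP-3654, against 402, 437 and 361 CPM with vehicle. Of these 7 genes, 3 were lower at an unadjusted p under 0.05, against 6.84% of all genes tested. T and NK cell genes summed to 151, 221 and 138 CPM with TP-3654, against 227, 254 and 267 CPM with vehicle, nearly all of it Nkg7. Erythroid genes summed to 1654, 932 and 879 CPM with TP-3654, against 1545, 961 and 713 CPM with vehicle, and megakaryocyte genes to 438, 387 and 417 CPM with TP-3654, against 353, 382 and 393 CPM with vehicle. These sums hide mixed directions. Of the erythroid genes tested, 5 had a log2 fold change above 0 and 4 below. Of the megakaryocyte genes tested, 2 were above 0 and 4 below (median −0.35). Itga2b made up most of the megakaryocyte sum, with means of 270 CPM with TP-3654 and 210 CPM with vehicle. None of the marker genes with a row was at 0 in all libraries, but some were barely counted. The low-count filter passed 4 of 8 T and NK cell genes and 7 of 10 B and plasma cell genes. Cd3e, a T cell marker, had 1 count in TP-3654 replicate 2 and 0 in every other library. The part of these cells in the ER gene results was not tested. Pax5, Ighm, Trac, Hbb-bs, Tpsab1 and, among the targeting genes, Srp54c were not analysed here.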

How the data were processed

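The 44 members, their classes and the other gene lists were chosen with earlier results of these data known. Libraries of poly(A) RNA, 6 in all, were deposited as a table of raw read counts by Entrez gene. The authors also deposited a comparison table. Per the file headers it holds a signal (mean normalized count per gene), a log2 fold change and its SE, a score (the Wald statistic), and the p-value before and after adjustment. Per the submitters' processing notes, the tools included DESeq2, SAMtools 1.9.0 and HISAT2 2.1.0 and the build was GRCm38 (mm10). Counter, annotation and strandedness: not given in the sources used here.

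Symbols came from the authors' deposited table for 12995 rows and from RefSeq GRCm38.p6 for 2844, and 6 rows had none. TP-3654 was compared with vehicle by edgeR 4.0.16 (R 4.3.3) on the counts, with TMM factors, filterByExpr, a robust quasi-likelihood F test and Benjamini-Hochberg adjustment over 13149 genes. The filter removed 2696 genes with 0.0674% of the counts. Each SE was taken as the size of the log2 fold change divided by the root of the F statistic. Lists were counted, not tested. Alternatives were DESeq2 1.42.0, RLE scaling, other filters, a replicate block, leaving out each library, and fits on genes of unique sequence, which were added later. The edgeR and DESeq2 steps were tested on simulated counts. Exon lengths, overlaps and 31-base words came from GENCODE on GRCm38, and promoters from RefSeq.

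Values of all 6 libraries are written out for members with an unadjusted p under 0.05 or groups that do not overlap, for Xbp1, Ern1, Atf6 and Eif2ak3, and for Calr and Hspa5. From each other list up to 3 genes with the smallest p are named. Sec61g and Dnajb9, and the markers Kit, Ly6a, Slamf1, Gata2, Cd34, Mpo, Nkg7 and Cd3e, were named after their values were seen. The level of 3 counts covers counting error only, whereas SEs and SDs include the spread between libraries.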

Additional observations from a re-analysis of the deposited data

How the results depend on the processing

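Genes called over the whole table numbered 0 in edgeR with all libraries, 657 with DESeq2, 5 with no low-count filter, 3 with the replicate block and 0 to 31 with single libraries left out. The same count was 123 over genes of unique sequence, 28 over those without TP-3654 replicate 3 and 446 with DESeq2 without TP-3654 replicate 3. Members called numbered 0 in edgeR, 11 with DESeq2, 8 with DESeq2 without TP-3654 replicate 3 and 1 over genes of unique sequence, and 0 in each of the 6 fits without 1 library. RLE scaling and the filter of 1 CPM in 3 libraries called 0 genes and 0 members. Chaperones lower at an unadjusted p under 0.05 numbered 11, and 7 to 14 with single libraries left out. Translocon genes numbered 10, 5 to 11 with single libraries left out, and 5 over genes of unique sequence without TP-3654 replicate 3, where fewer members were tested. Sensors and ERAD genes numbered 1, 1 to 4 with single libraries left out, 2 with DESeq2 and 2 over genes of unique sequence. Over all genes the lower share at that p ran from 5.02% to 7.68% with single libraries left out. It was 7.16% with DESeq2, 9.64% over genes of unique sequence and 5.63% over those without TP-3654 replicate 3. Of the 44 members, 36 kept one direction in all 6 fits without 1 library. Single libraries also altered by over 1.5 times the log2 fold changes of Canx (−0.33 to −0.14), Dnajc3 (−0.39 to −0.07), Hyou1 (−0.43 to −0.20), Ero1l (−0.50 to −0.22), Syvn1 (−0.46 to −0.16), Herpud1 (−0.52 to −0.11) and Eif2ak3 (−0.18 to −0.01), beside Hspa5, Manf, Ssr3, Sec11a, Rpn1 and Xbp1. The 8 members that turned in sign had log2 fold changes near 0 or rested on 1 library, and ran from −0.17 to 0.27 for Dnajb9, −0.42 to 0.0225 for Ero1lb, −0.30 to 0.89 for Sec61g, −0.13 to 0.0404 for Sec62, −0.0281 to 0.0701 for Sec63, −0.0542 to 0.31 for Ern1, −0.15 to 0.0192 for Atf6 and −0.28 to 0.0571 for Sel1l. DESeq2 without TP-3654 replicate 3 gave −0.30 for Sec61g, 0.037 for Sec62, −0.0315 for Sec63 and −0.0577 for Ern1, each opposite in sign to the fit with all libraries. Over genes of unique sequence without that replicate, Sec63 was at −0.0428 and Ern1 at −0.0683. The cause was not tested. Replicate numbers did not pair the libraries: same-numbered deviations correlated at −0.0117, −0.015 and 0.031, and with the replicate block 21 members, against 22, were at an unadjusted p under 0.05. Of all genes in the fit with that block, 6.15% were lower at that p. Every member was far above the level of 3 counts in every library.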
